A study of Mus musculus with 2 samples.

Results

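The solute carriers are membrane proteins that move nutrients, ions, metals, nucleotides and metabolites across the plasma membrane and across the membranes of mitochondria, lysosomes and the secretory pathway. The genes described here were those with symbols beginning with Slc and a digit. Slc40a1, Slc11a1, Slc2a1 and Slc2a3 were left out, and at least 500 unique molecular identifiers (UMI, a tag that lets PCR copies be counted as 1 molecule) were required over the retained barcodes. Of 371 matching symbols, 133 qualified and 238 did not, of which 61 had no UMI. The chosen genes included Slc39a14 with 504, Slc30a4 with 516 and Slc38a7 with 532 UMI. Just below the threshold lay Slc25a22 with 496, Slc2a8 with 422 and Slc35d2 with 409 UMI. The 133 genes held 359299 UMI, or 0.559% of the retained UMI, with a median of 1545 and a maximum of 27546 UMI per gene. The genes were thus selected on their UMI total over all retained barcodes, with no rule on differences between cell classes. A gene could still reach 500 UMI through 1 class. Slc16a9 did so with 648 UMI in cells later gated as Kupffer-like, and Slc26a10 with 510 UMI in those gated as endothelial-like. They are not the only ones. Slc43a3, Slc9a3r2 and Slc39a8 held 3416, 1936 and 1572 UMI in endothelial-like cells and few in the other classes. Slc45a3 held 489 UMI in Kupffer-like cells and at most 14 in any other class. Further leading genes may be of this kind. The lead of such a gene is in part built into the choice.

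The study asked how liver immune cells differ between mice that carry a conditional deletion of Rcrin, labelled Rcrin KO, and floxed mice, labelled WT. Both labels gave the strain RedMUC298trTg, an age of 8 weeks, liver as the tissue and immune cells as the cell type. Liver was digested with collagenase IV and the sorted suspension was run on the 10x Genomics droplet system. The sources used here give no Cre driver, number of mice or sort gate. The deposited matrix, gene list and barcode list of Rcrin KO were each identical to those of WT. They were therefore treated as 1 sample of unknown genotype, all barcodes were shared by both labels, and genotypes were not compared. Rcrin was not a symbol of the gene list, so the targeted gene could not be checked. With 1 sample there is no replicate error and no test. Levels are given per 1000000 UMI of a class (CPM), followed by their exact 95% interval for a Poisson count. A ratio of CPM carries an exact 95% interval as well, conditional on the sum of both counts. All such intervals describe counting error alone, so variation between cells and between mice lies outside them.

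The matrix held 67037274 UMI over 11192 barcodes. After filtering and removal of 351 predicted doublets, 10015 cells with a median of 4250 UMI remained. Marker genes, none of them a solute carrier, placed 9169 of these in 14 classes of at least 30 cells, each called by the cell type whose markers it held. There were 2970 B-like, 62 plasma-like, 2211 T-like, 533 NK-like, 190 ILC1-like, 886 neutrophil-like, 499 Kupffer-like, 843 sinusoidal endothelial-like, 339 classical monocyte-like, 283 nonclassical monocyte-like, 55 cDC1-like, 41 cDC2-like, 221 pDC-like and 36 basophil-like cells. Median depth ran between 2557 UMI per cell in neutrophil-like cells and 18728 in plasma-like cells. These markers set the gates, so their sums describe how far classes overlap and are no independent check. Endothelial markers summed to 18600 CPM in endothelial-like cells and to 167 CPM in Kupffer-like cells, and Kupffer markers to 25200 CPM in Kupffer-like cells and to 102 CPM in endothelial-like cells. ILC1-like cells also held T markers, at 1210 CPM against 3390 CPM in T-like cells, and NK markers, at 1280 CPM against 4450 CPM in NK-like cells. The NK and ILC1 lists share Klrb1c and Ncr1, so sums of these lists overlap in part by construction. Classical monocyte markers summed to 2450 CPM in pDC-like and 1270 CPM in cDC2-like cells, against 5830 CPM in classical monocyte-like cells. Basophil markers were at 2460 CPM in neutrophil-like cells, against 12200 CPM in basophil-like cells, and ILC1 markers at 929 CPM in endothelial-like cells, against 3490 CPM in ILC1-like cells. The part of these overlaps in the solute carrier levels was not tested. Ptprc, the pan-leukocyte gene CD45, stood at 21.7 CPM in endothelial-like cells and at 146 to 3330 CPM in the other 13 classes, so the immune label of the samples did not hold for the endothelial-like cells. Among gauges of free hepatocyte RNA, the 10 hepatocyte markers summed to at most 68.6 CPM in any class, whereas Alb, the albumin gene, was at 233 CPM in Kupffer-like, 143 CPM in neutrophil-like, 139 CPM in endothelial-like and 115 CPM in B-like cells.

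Liver cell types divide the work of transport. Sinusoidal endothelial cells and Kupffer cells face the blood and take up metals, haem, nucleosides and amino acids. Neutrophils depend on glycolysis and export lactate, and on cystine import for glutathione. Basophils load histamine into granules, and plasma cells supply the endoplasmic reticulum with nucleotides and sugars for glycoprotein synthesis.

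A gene was said to lead a class when its CPM there was at least 2-fold that of the next class and at least 30 UMI were counted there. Of the 133 genes, 28 (21.1%) led a class, against 17.9% of all 9141 genes with 500 UMI or more, a share close to that background. With a 4-fold threshold 13 (9.77%) led a class, against 7.81% of all genes. The median ratio of the highest to the next class was 1.34 for the solute carriers and 1.24 for all genes. The median ratio of the highest to the median class was 3.06 and 2.52. Of the 28, 9 exceeded 10-fold and 15 lay below 4-fold. Slc25a25, Slc7a6 and Slc30a4 also passed 2-fold but with 11, 10 and 15 UMI in their highest class, and they were not counted. The intervals of 68 genes included a ratio of 1 between the highest and the next class, so those classes were not separated. UMI were found in all 14 classes for 78 of the genes. The share over all genes is not given for these last counts, and detection in every class depends on its depth.

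**Figure D1:**
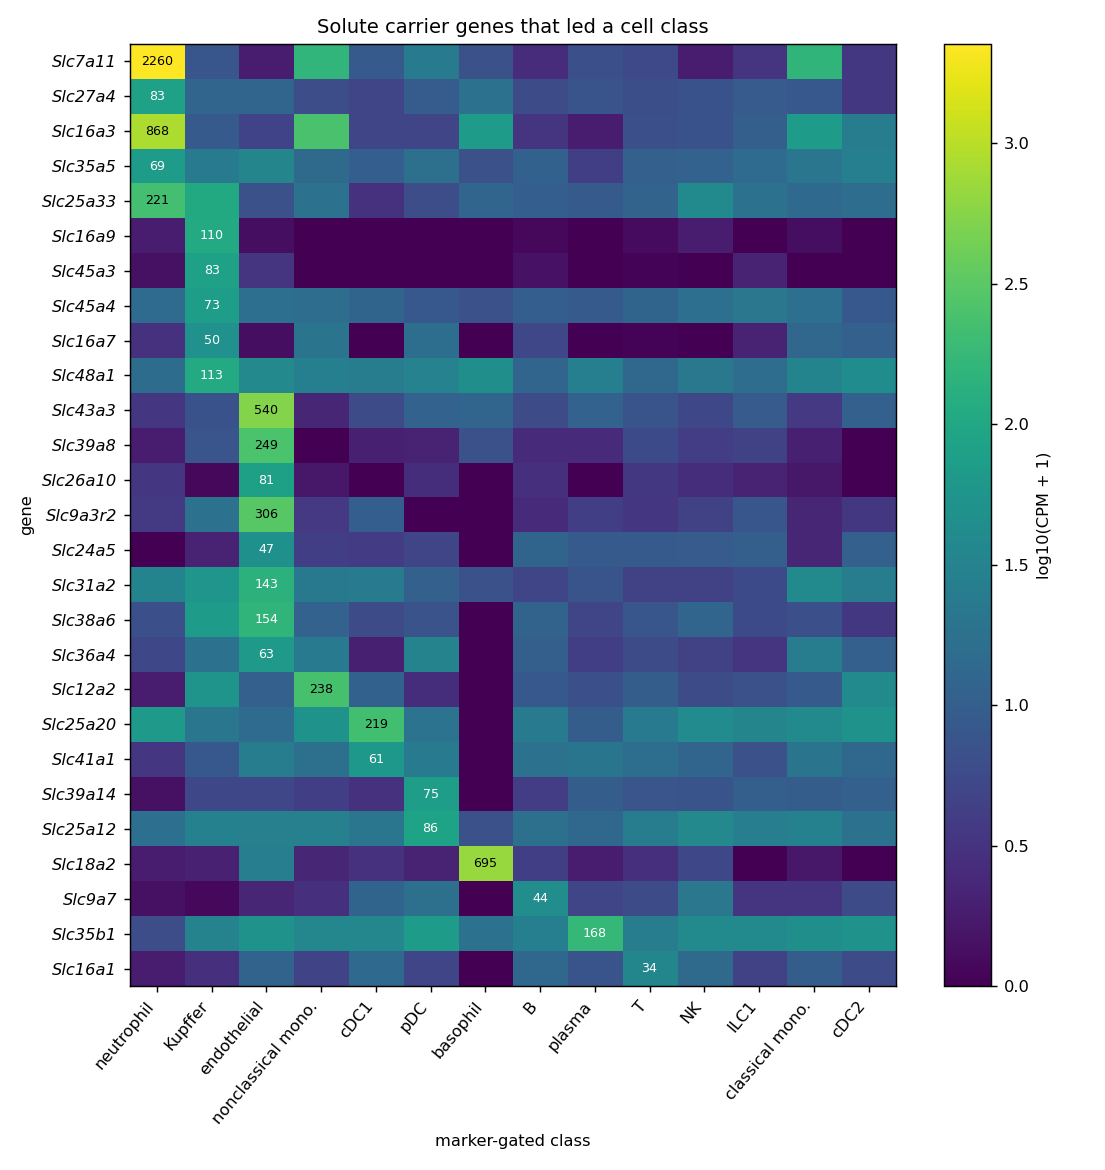
Levels of 27 of the 28 leading solute carrier genes (rows) in 14 marker-gated classes (columns), as log10(CPM + 1), with the CPM printed in the class that each gene led. Slc7a11 (2260 CPM in neutrophil-like cells), Slc43a3 (540 CPM in endothelial-like cells) and Slc18a2 (695 CPM in basophil-like cells) stand out from dark rows, whereas rows such as Slc48a1 and Slc25a12 are graded.

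The promoters of leading genes in the 3 classes with 5 or more of them are shown so that the letters upstream of each pattern can be read, with up to 2 genes per class. They come from RefSeq (GRCm38.p6), 250 bases before to 50 bases after the start of transcription, written 5′ to 3′ on the gene's strand. Of the 133 genes, 102 had such a sequence, as did 21 of the 28 leading genes. Slc43a3 had no sequence in the table. Where 2 starts were listed, as for Slc45a3 and Slc39a8, the first was used. Capitals mark matches on either strand to 4 motifs: TGATGNAA (amino acid response element), TGACNNNGC (antioxidant response element), GAGGAA (core of PU.1 sites) and CACGTG (E-box). Slc16a9 and Slc45a3 led Kupffer-like cells, Slc7a11 and Slc27a4 neutrophil-like cells, and Slc39a8 and Slc26a10 endothelial-like cells.
Slc16a9 (chr10:70245026-70245325, + strand): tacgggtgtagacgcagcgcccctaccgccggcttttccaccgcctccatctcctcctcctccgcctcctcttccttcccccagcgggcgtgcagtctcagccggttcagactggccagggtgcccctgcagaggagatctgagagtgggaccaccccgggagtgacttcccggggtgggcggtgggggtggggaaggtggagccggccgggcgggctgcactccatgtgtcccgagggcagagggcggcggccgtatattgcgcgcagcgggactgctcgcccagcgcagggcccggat
Slc45a3 (chr1:131962665-131962964, + strand): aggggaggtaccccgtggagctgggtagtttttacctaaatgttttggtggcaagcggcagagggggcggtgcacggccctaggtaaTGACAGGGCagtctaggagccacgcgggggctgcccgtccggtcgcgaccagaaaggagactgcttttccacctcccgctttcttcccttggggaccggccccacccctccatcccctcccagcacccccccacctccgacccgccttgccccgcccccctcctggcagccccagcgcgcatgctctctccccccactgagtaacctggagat
Slc7a11 (chr3:50443564-50443863, - strand): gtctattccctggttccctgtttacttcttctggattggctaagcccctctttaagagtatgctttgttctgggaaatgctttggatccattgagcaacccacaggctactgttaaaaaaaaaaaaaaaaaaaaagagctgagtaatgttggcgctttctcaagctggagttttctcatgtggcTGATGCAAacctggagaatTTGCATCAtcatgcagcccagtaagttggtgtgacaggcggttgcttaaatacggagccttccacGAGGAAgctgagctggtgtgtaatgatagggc
Slc27a4 (chr2:29802384-29802683, + strand): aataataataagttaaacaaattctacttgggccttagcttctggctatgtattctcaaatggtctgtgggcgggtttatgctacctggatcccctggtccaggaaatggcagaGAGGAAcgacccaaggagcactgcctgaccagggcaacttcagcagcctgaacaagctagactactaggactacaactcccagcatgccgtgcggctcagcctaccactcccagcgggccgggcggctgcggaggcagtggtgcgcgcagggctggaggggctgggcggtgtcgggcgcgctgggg
Slc39a8 (chr3:135825029-135825328, + strand): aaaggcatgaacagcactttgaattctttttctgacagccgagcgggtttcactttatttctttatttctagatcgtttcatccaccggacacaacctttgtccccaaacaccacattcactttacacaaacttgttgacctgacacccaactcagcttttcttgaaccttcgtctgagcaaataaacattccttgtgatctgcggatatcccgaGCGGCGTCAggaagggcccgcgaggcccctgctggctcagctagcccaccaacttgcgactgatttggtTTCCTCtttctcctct
Slc26a10 (chr10:127180533-127180832, - strand): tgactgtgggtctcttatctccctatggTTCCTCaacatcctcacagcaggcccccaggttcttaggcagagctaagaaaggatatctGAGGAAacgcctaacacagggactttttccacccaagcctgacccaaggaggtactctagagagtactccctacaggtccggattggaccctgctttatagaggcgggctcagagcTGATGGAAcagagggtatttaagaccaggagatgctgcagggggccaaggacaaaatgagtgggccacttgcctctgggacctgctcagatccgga

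The Slc7a11 promoter held 2 matches to TGATGNAA in opposite orientation, beginning at -66 and -47 from the start. That motif was in 4.06% of 27025 promoters and in 5 of the 102 solute carrier promoters (4.9%), also once in that of Slc26a10. TGACNNNGC was in 12.5% of all promoters and in 26 of the 102 (25.5%), among them those of Slc45a3 and Slc39a8. GAGGAA was in 28.3% of all promoters and in 27 of the 102 (26.5%). CACGTG was in 7.24% of all promoters, in 14 of the 102 (13.7%), and in none of the 6 shown. The motifs do not overlap one another in the 6 sequences, and a match describes letters only.

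Neutrophil-like cells led with 5 solute carriers, 3.76% of the 133 against 1.86% of all genes. Slc7a11, the cystine and glutamate exchanger xCT, was at 2260 CPM in neutrophil-like cells (95% interval 2200 to 2320; 5696 UMI). It was at 162 CPM (142 to 183) in nonclassical and 155 CPM in classical monocyte-like cells, and at 22.8 CPM or less in the other classes, with a median of 5.64 CPM over all 14. The ratio to nonclassical monocyte-like cells was 14 (12.3 to 15.9). The gene was detected in 95.6% of neutrophil-like cells and in 0.593% of endothelial-like cells, whose median depths were 2557 and 7012 UMI. With every cell thinned to 1000 UMI, 85.0% (82.4 to 87.3) of neutrophil-like cells and 0 of the 822 endothelial-like cells, which allows a share of up to 0.365%, had a UMI.

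Slc16a3, the lactate exporter MCT4 of glycolytic cells, was at 868 CPM (832 to 906) in neutrophil-like cells, against 242 CPM (218 to 267) in nonclassical monocyte-like cells, a ratio of 3.6 (3.22 to 4.02). Classical monocyte-like cells held 71.4 CPM, basophil-like cells 68.3 CPM from 12 UMI and plasma-like cells 0.798 CPM. Both Slc7a11 and Slc16a3 thus ran in the order neutrophil-like, nonclassical monocyte-like and classical monocyte-like cells. For Slc7a11 the nonclassical and classical monocyte-like values lay within the counting interval of the nonclassical class.

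The other 3 leaders of neutrophil-like cells were low. Slc25a33, a mitochondrial pyrimidine nucleotide carrier, was at 221 CPM in neutrophil-like and 108 CPM in Kupffer-like cells (ratio 2.05, 1.83 to 2.3). Slc27a4, the fatty acid transport protein FATP4, was at 83.2 CPM in neutrophil-like cells and at 17.1 CPM in basophil-like cells, where only 3 UMI were counted (ratio 4.87, 1.64 to 23.8). Slc35a5, a member of the nucleotide sugar transporter family, was at 68.9 CPM in neutrophil-like and 32.4 CPM in endothelial-like cells (ratio 2.13, 1.73 to 2.62). With ribosomal protein, mitochondrial, haemoglobin and hepatocyte secretory genes left out of the CPM total (the reduced total), Slc25a33 was at a ratio of 1.82 and Slc35a5 of 1.93, and with every cell thinned to 1000 UMI Slc27a4 was at 1.69 and Slc35a5 at 1.81. Neutrophil-like cells also had the highest level of Slc15a3, the lysosomal peptide and histidine transporter PHT2, at 466 CPM against 390 CPM in Kupffer-like cells (ratio 1.19, 1.11 to 1.28). They were the lowest class for 28 of the 133 genes, against 48 for basophil-like cells, 40 of these with no UMI there. The share of all genes that were lowest in each class is not given, so these counts have no background.

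Endothelial-like cells were the highest class for 38 of the 133 genes (28.6%, against 22% of all genes) and led with 9 (6.77%, against 7.64% of all genes). Slc43a3, known in human as a purine nucleobase transporter, was at 540 CPM (522 to 558; 3416 UMI) in endothelial-like cells. The other 13 classes lay between 1.3 CPM in nonclassical monocyte-like cells and 11.4 CPM in basophil-like cells, where 2 UMI were counted (ratio 47.4, 13.1 to 392). With every cell thinned to 1000 UMI, 39.1% (35.7 to 42.5) of endothelial-like cells and 0.225% of Kupffer-like cells had a UMI of Slc43a3. Without thinning the gene was found in 90.0% of endothelial-like cells (median depth 7012 UMI) and in 0.707% of nonclassical monocyte-like cells (4822 UMI).

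Slc39a8, the zinc and manganese importer ZIP8, was at 249 CPM (236 to 261) in endothelial-like cells, against 6.61 CPM in Kupffer-like cells (ratio 37.6, 27.4 to 53.1). No UMI was counted in nonclassical monocyte-like or cDC2-like cells. Slc26a10, of the anion exchanger family, was at 80.6 CPM in endothelial-like and 2.52 CPM in T-like cells (ratio 32.0, 22.4 to 47.3). Slc9a3r2, the scaffold protein NHERF2 and no carrier itself, was at 306 CPM in endothelial-like and 16.8 CPM in Kupffer-like cells (ratio 18.2, 14.9 to 22.6).

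Lower ratios marked 4 further leaders of endothelial-like cells, among them copper and amino acid carriers. Slc24a5, a sodium, calcium and potassium exchanger known from pigment cells, was at 47.4 CPM in endothelial-like and 11.1 CPM in B-like cells (ratio 4.27). Slc31a2, the copper transporter CTR2, was at 143 CPM in endothelial-like and 55.1 CPM in Kupffer-like cells (ratio 2.6). Slc38a6, of the glutamine transporter family, was at 154 CPM in endothelial-like and 68.3 CPM in Kupffer-like cells (ratio 2.25). Slc36a4, a lysosomal and plasma membrane amino acid transporter, was at 63.4 CPM in endothelial-like and 30.2 CPM in pDC-like cells (ratio 2.1). With every cell thinned to 1000 UMI, the ratio was 1.07 for Slc24a5 and 1.32 for Slc36a4. Kupffer-like cells were thus the next class for 4 of the 9 leading genes.

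Endothelial-like and Kupffer-like cells together stood above the rest for Slc29a1, the equilibrative nucleoside transporter ENT1. It was at 538 CPM (520 to 556) in endothelial-like cells and 282 CPM (269 to 296) in Kupffer-like cells, and at 53.9 CPM or less elsewhere. The ratio of 1.91 (1.8 to 2.02) kept it under the threshold. Slc43a3, which stood at 540 CPM in endothelial-like cells, was at 6.1 CPM in Kupffer-like cells. Slc43a2, the neutral amino acid transporter LAT4, was at 363 CPM in endothelial-like and 212 CPM in Kupffer-like cells (ratio 1.71, 1.6 to 1.84). Slc38a1, the glutamine transporter SNAT1, was at 2.53 CPM in endothelial-like cells and at 81.4 to 546 CPM in the other 13 classes, while its relative Slc38a2 (SNAT2) was highest in endothelial-like cells at 513 CPM, against 464 CPM in B-like cells (ratio 1.11, 1.06 to 1.16).

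Kupffer-like cells led with 5 genes, 3.76% of the 133 against 1.99% of all genes. Slc16a9, the monocarboxylate transporter MCT9 linked in human to carnitine, was at 110 CPM (102 to 119; 648 UMI) in Kupffer-like cells and at 0.867 CPM or less in every other class. The next class was NK-like cells with 2 UMI (ratio 127, 34.9 to 1050), and 7 classes had none. With every cell thinned to 1000 UMI, 8.56% (6.13 to 11.6) of Kupffer-like cells and 0.122% of endothelial-like cells had a UMI. Without thinning the shares were 56.3% of Kupffer-like cells (median depth 12907 UMI) and 0 of the 62 plasma-like cells (18728 UMI), which allows a share of up to 4.84%.

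Slc45a3, of a sugar transporter family and known in human as prostein, was at 82.9 CPM (75.7 to 90.5) in Kupffer-like and 2.21 CPM in endothelial-like cells (ratio 37.4, 22.1 to 69.0). Its relative Slc45a4 was at 72.7 CPM in Kupffer-like and 20.7 CPM in ILC1-like cells (ratio 3.51, 2.19 to 5.97), but at a ratio of 1.36 in cells thinned to 1000 UMI. Slc16a7, the pyruvate and lactate transporter MCT2, was at 49.5 CPM in Kupffer-like and 18.8 CPM in nonclassical monocyte-like cells (ratio 2.63, 1.79 to 3.99). Slc48a1, the haem transporter HRG1 of phagolysosomes, was at 113 CPM (105 to 122) in Kupffer-like cells and at 45.6 CPM in basophil-like cells from 8 UMI (ratio 2.49, 1.26 to 5.79). It was detected in every class, with the lowest level, 11.6 CPM, in B-like cells. Slc7a8, the amino acid exchanger LAT2, was at 233 CPM in Kupffer-like and 159 CPM in basophil-like cells, an interval of the ratio that reached 1 (1.46, 1.0 to 2.2).

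**Figure D2:**
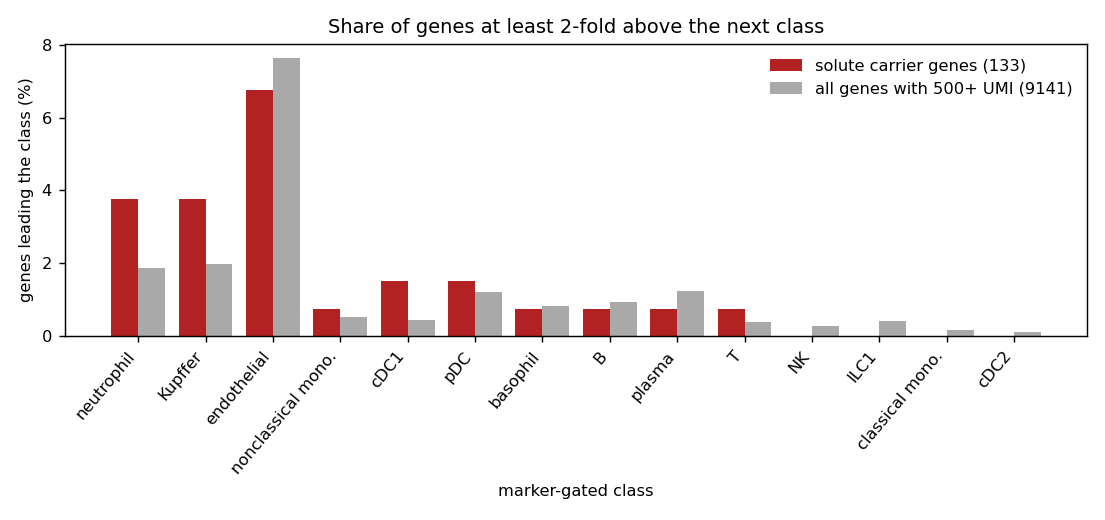
Percentage of genes that led each class at 2-fold or more, for the 133 solute carrier genes (red) and for all 9141 genes with 500 UMI or more (grey). Endothelial-like cells have the tallest pair of bars (6.77% and 7.64%), and 4 classes have a grey bar only.

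Nonclassical monocyte-like cells led with 1 gene, Slc12a2 (0.752% of the 133, against 0.525% of all genes). This sodium, potassium and chloride cotransporter, NKCC1, was at 238 CPM (215 to 264) in nonclassical and 7.83 CPM in classical monocyte-like cells. Kupffer-like cells came next with 53.5 CPM (ratio 4.45, 3.82 to 5.19). Classical monocyte-like cells led with none (0.153% of all genes) and cDC2-like cells with none (0.0985%).

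cDC1-like and pDC-like cells were each led by a mitochondrial carrier and a metal carrier. cDC1-like cells led with 2 genes (1.5%, against 0.427% of all genes). Slc25a20, the carnitine and acylcarnitine carrier that brings fatty acids to mitochondrial oxidation, was at 219 CPM (191 to 250) in cDC1-like and 65.0 CPM in neutrophil-like cells (ratio 3.37, 2.74 to 4.15). Slc41a1, a magnesium transporter, was at 61.0 CPM in cDC1-like and 25.3 CPM in endothelial-like cells (ratio 2.41, 1.76 to 3.26), and at a ratio of 1.99 when cells were grouped by Leiden clusters.

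pDC-like cells led with 2 genes (1.5%, against 1.2% of all genes). Slc39a14, the zinc, iron and manganese importer ZIP14, was at 74.6 CPM (62.4 to 88.5) in pDC-like cells and at 9.79 CPM in cDC2-like cells from 4 UMI (ratio 7.61, 2.9 to 28.4). Slc25a12, the aspartate and glutamate carrier aralar, was at 86.0 CPM in pDC-like and 36.4 CPM in NK-like cells (ratio 2.36, 1.8 to 3.12). Slc15a4, the endolysosomal histidine transporter known to be needed for Toll-like receptor responses of these cells, was at 170 CPM in pDC-like and 92.2 CPM in nonclassical monocyte-like cells (ratio 1.84, 1.5 to 2.26). Slc44a2, a choline transporter-like protein, was at 310 CPM in pDC-like and 160 CPM in nonclassical monocyte-like cells (ratio 1.94, 1.66 to 2.26).

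Basophil-like cells led with Slc18a2 (0.752%, against 0.831% of all genes), the vesicular monoamine transporter VMAT2 that loads histamine into granules. It was at 695 CPM (577 to 830; 122 UMI) in basophil-like cells, against 26.2 CPM (22.4 to 30.6) in endothelial-like cells (ratio 26.5, 20.8 to 33.6). UMI were counted in 75.0% of basophil-like cells and in 0 of the 190 ILC1-like cells, which allows a share of up to 1.58%, with median depths of 4659.5 and 4456.5 UMI. With every cell thinned to 1000 UMI, 30.6% (16.3 to 48.1) of basophil-like and 1.95% of endothelial-like cells had a UMI. With 36 cells and 175589 UMI, the basophil-like class was the shallowest, and 1 UMI there stood for 5.7 CPM. Of the 133 genes, at least 40 had no UMI in it, which at this depth is not evidence of absence.

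Lymphoid classes led with few solute carriers. Plasma-like cells led with Slc35b1 (0.752%, against 1.24% of all genes), known in human as an ATP and ADP exchanger of the endoplasmic reticulum, at 168 CPM (146 to 193) against 67.7 CPM in pDC-like cells (ratio 2.49, 1.98 to 3.14). Slc35b1 was lowest in neutrophil-like cells, at 5.15 CPM. T-like cells led with Slc16a1 (0.752%, against 0.372% of all genes), the lactate and pyruvate transporter MCT1, at 33.9 CPM against 13.4 CPM in NK-like cells (ratio 2.52, 1.75 to 3.76; 1.82 in thinned cells). B-like cells led with Slc9a7 (0.752%, against 0.93% of all genes), the sodium and proton exchanger NHE7 of the Golgi network, at 43.5 CPM against 20.4 CPM in NK-like cells (ratio 2.14, 1.58 to 2.95; 1.6 in cells with at most 5% mitochondrial UMI). NK-like and ILC1-like cells led with none (0.273% and 0.405% of all genes).

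Below the threshold, Slc3a2, the heavy chain that partners xCT and other amino acid exchangers, had its highest level in ILC1-like cells, with 479 CPM against 287 CPM in NK-like cells (ratio 1.67, 1.48 to 1.89). Slc16a10, the aromatic amino acid transporter TAT1, was at 142 CPM in ILC1-like and 94.7 CPM in Kupffer-like cells (ratio 1.5, 1.22 to 1.82). The part played in these ILC1-like values by the T markers in that class was not tested.

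By substrate, the 15 sugar and monocarboxylate carriers included 7 leading genes (46.7%), of which 4 led Kupffer-like cells and 1 each T-like, neutrophil-like and endothelial-like cells. The 18 metal carriers included 4 leading genes (22.2%), 2 in endothelial-like and 1 each in cDC1-like and pDC-like cells. The 15 carriers of inorganic ions included 4 (26.7%), and the 15 carriers of amino acids, peptides and neurotransmitters 2 (13.3%). The 11 lysosomal and endosomal carriers included 2 (18.2%), the 8 carriers of organic ions, vitamins and lipids 2 (25.0%), and the 4 carriers of nucleosides and vitamin C 1 (25.0%). The 16 nucleotide sugar carriers included 2 (12.5%) and the 27 mitochondrial carriers 3 (11.1%), against 17.9% of all genes. The 4 genes that bear the symbol without being carriers included 1.

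**Figure D3:**
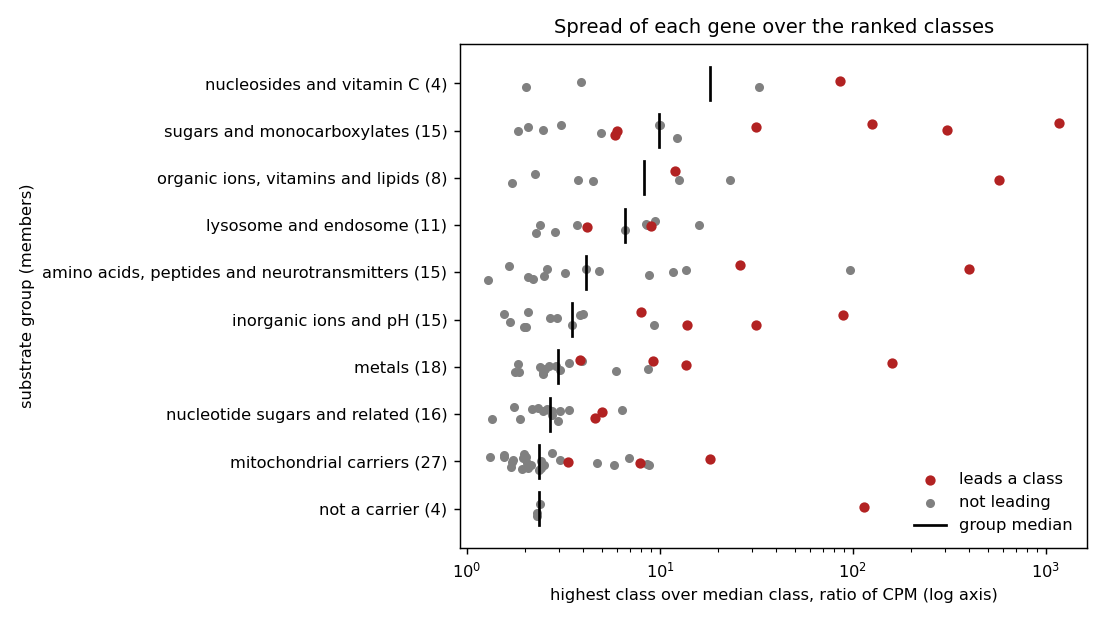
Ratio of the highest to the median class (log axis) for each solute carrier gene, by substrate group, with genes that led a class in red and the group median as a black line. Slc45a3, whose median class is at 0, has no point. The median ratio was 9.93 for sugar and monocarboxylate carriers and 2.35 for mitochondrial carriers, whose points cluster at the left.

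Mitochondrial carriers had the lowest median ratio of the highest to the median class of the 9 groups of carriers, 2.35, against 2.7 for nucleotide sugar carriers and 2.96 for metal carriers. Slc25a3, the phosphate carrier that feeds ATP synthesis, was at 539 CPM (513 to 566) in classical monocyte-like and 513 CPM (469 to 559) in cDC1-like cells, classes that were not separated, and at 281 CPM in the lowest, plasma-like cells. Slc25a5, the ATP and ADP exchanger ANT2, was at 693 CPM in classical monocyte-like and 616 CPM in Kupffer-like cells (ratio 1.12, 1.07 to 1.19), and at 155 CPM in neutrophil-like cells. Of the 27 mitochondrial carriers, 17 had an interval of the ratio to the next class that included 1, and 9 stayed below 2-fold of their median class. Slc50a1, a sugar transporter of the secretory pathway, was at 80.9 CPM in endothelial-like and 80.6 CPM in NK-like cells (ratio 1.0, 0.847 to 1.19). Slc20a1, a phosphate importer, was at 153 CPM in ILC1-like and 125 CPM in NK-like cells (ratio 1.23, 0.991 to 1.51), and Slc30a5, a zinc transporter of the secretory pathway, at 89.4 CPM in pDC-like and 77.3 CPM in B-like cells (ratio 1.16, 0.969 to 1.37).

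In other groups, genes whose highest and next class were separated by less than 2-fold included the 5 given here, besides those named above. Slc39a1, the zinc importer ZIP1, was at 132 CPM in endothelial-like and 107 CPM in Kupffer-like cells (ratio 1.23). Slc9a9, an endosomal sodium and proton exchanger, was at 110 CPM in endothelial-like and 76.6 CPM in Kupffer-like cells (ratio 1.44). Slc44a1, a choline transporter-like protein, was at 128 CPM in endothelial-like and 76.3 CPM in pDC-like cells (ratio 1.67). Slc35b3, a Golgi carrier of the sulfate donor PAPS, was at 60.1 CPM in endothelial-like and 45.8 CPM in T-like cells (ratio 1.31). Slc9a3r1, the scaffold protein NHERF1, was at 168 CPM in neutrophil-like and 132 CPM in NK-like cells (ratio 1.27).

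Of the carriers whose symbols do not begin with Slc and a digit, 24 were listed and 23 were in the gene list. Of these, 7 led a class by the same rule, of which Slco4a1 and Spns3 had 464 and 355 UMI. Of the 15 that reached 500 UMI, 5 led a class (33.3%, against 17.9% of all genes with 500 UMI or more). Slco2a1, the prostaglandin transporter, was at 389 CPM in endothelial-like and 18.5 CPM in Kupffer-like cells (ratio 21.1, 17.4 to 25.8). Spns2, an exporter of sphingosine 1-phosphate, was at 53.0 CPM in endothelial-like and 20.9 CPM in B-like cells (ratio 2.53), and Mtch1, a mitochondrial outer membrane protein, at 291 CPM in endothelial-like and 125 CPM in cDC1-like cells (ratio 2.33). Mpc2, a subunit of the mitochondrial pyruvate carrier, reached 547 CPM in basophil-like cells, against 173 CPM in nonclassical monocyte-like cells (ratio 3.17), whereas its partner Mpc1 was highest in neutrophil-like cells at 335 CPM, against 238 CPM in classical monocyte-like cells (ratio 1.41). Slco4a1, Spns3 and Mfsd12 led pDC-like cells, with ratios of 3.06, 4.28 and 2.26.

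Neutrophil-like cells were divided into 64 immature cells, with at least 2 of the granule and differentiation genes Ngp, Camp, Ltf and Cebpe, and 820 mature cells, with at least 2 of Cxcr2, Il1r2, Csf3r and Il1b and fewer than 2 of the first list. Immature cells were deeper, at a median of 6115.5 UMI against 2495.5 UMI in mature cells. The median gene of those with 500 UMI or more was scored at a ratio of 1.15 (immature over mature). Above it were scored 66 of the 133 solute carriers. For these values a gene with 0 UMI in a state was given 3 UMI there. Genes with no UMI in immature cells could thus be scored above the median gene. Slc39a8, with 0 UMI in immature and 2 UMI in mature cells, was scored at 8.03. At 2-fold or more with at least 30 UMI in the higher state, 1 solute carrier was higher in immature cells (0.752%, against 2.14% of all genes) and 14 were lower (10.5%, against 12.1% of all genes), shares below and close to the background. The minimum of 30 UMI stood for 75.7 CPM in immature and 14.1 CPM in mature cells, so calls in the 2 directions did not have the same reach. Without that minimum, and relative to the median gene, 39 solute carriers were scored at least 2-fold higher and 28 at least 2-fold lower in immature cells. Genes of few or no UMI were included with the value of 3 UMI, so these 2 counts in part reflect it.

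The carriers that were lower in immature cells included 2 that led the whole class, Slc7a11 and Slc25a33. Slc7a11 was at 588 CPM (515 to 668) in immature and 2570 CPM (2500 to 2640) in mature cells (ratio 0.229, 0.2 to 0.261), and Slc25a33 at 80.7 CPM in immature and 247 CPM in mature cells (ratio 0.326, 0.221 to 0.466). Slc3a2, the partner of xCT, was at 70.6 CPM in immature and 247 CPM in mature cells (ratio 0.286, 0.188 to 0.418), and Slc15a3 at 103 CPM in immature and 534 CPM in mature cells (ratio 0.194, 0.138 to 0.265). Slc38a1 had the lowest ratio, with 12.6 CPM (5 UMI) in immature and 217 CPM (460 UMI) in mature cells (0.0582, 0.0188 to 0.137). Slc44a1 was at 7.57 CPM in immature and 55.6 CPM in mature cells, and Slc26a11, a sulfate and anion transporter, at 2.52 CPM (1 UMI) in immature and 25.4 CPM (54 UMI) in mature cells (ratio 0.0992, 0.00247 to 0.576). For Slc48a1 and Slc43a2 the interval included 1. Slc16a3 was not past the threshold, with a ratio of 0.634. Slc25a24, a mitochondrial carrier of ATP-magnesium and phosphate, was the gene higher in immature cells, at 131 CPM (98 to 172) against 18.8 CPM (13.5 to 25.7) in mature cells, a ratio of 6.96 (4.52 to 10.8). Slc7a11 in immature cells still exceeded the 162 CPM of nonclassical monocyte-like cells.

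T-like cells were divided into 1250 effector cells, with at least 2 of Ccl5, Cxcr6, Gzmb, Gzmk, Nkg7 and Id2, and 481 naive cells, with at least 2 naive markers such as Lef1, Ccr7, Igfbp4 and Dapl1, each with fewer than 2 of the other list. Median depths were 4664 UMI in effector and 4981 UMI in naive cells. The median gene had a ratio of 1.16 (effector over naive), and 0.972 with the reduced total, which left out 24% of UMI in effector and 36.6% in naive cells. Of the 133 solute carriers, 16 were at least 2-fold higher in effector cells (12.0%, against 12.6% of all genes) and 1 was lower (0.752%, against 2.48% of all genes), the first share being close to the background. With the reduced total these counts were 8 and 4. The minimum UMI count required of a call stood for 4.37 CPM in effector and 12.1 CPM in naive cells. Calls of higher and of lower genes thus did not have the same reach. Without that minimum, and relative to the median gene, 10 carriers were scored at least 2-fold higher and 11 at least 2-fold lower in effector cells. Genes of few or no UMI were included in this count, with 0 UMI in a state replaced by 3 UMI. Some genes scored as lower thus had UMI in effector cells only. Slc16a9, with 2 UMI in effector and 0 UMI in naive cells, was scored at 0.24.

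Of the 15 carriers of amino acids, peptides and neurotransmitters, 2 were at least 2-fold higher in effector cells, Slc3a2 and Slc38a1, and 0 were lower. Slc38a2 was at a ratio of 0.83 (0.769 to 0.897) and Slc43a2 of 0.569 (0.434 to 0.749), neither past the threshold. The aromatic amino acid transporter gene Slc16a10, counted with the monocarboxylate carriers, was at 31.5 CPM (27.4 to 36.0) in effector and 4.44 CPM (2.22 to 7.95) in naive cells (ratio 7.08). Slc3a2 was at 366 CPM in effector and 133 CPM in naive cells (ratio 2.76, 2.46 to 3.11), and Slc38a1 at 309 CPM in effector and 139 CPM in naive cells (ratio 2.23, 1.99 to 2.5), but at a ratio of 1.86 with the reduced total. Slc25a24 was at 36.9 CPM (32.5 to 41.7) in effector and 4.85 CPM (2.51 to 8.47) in naive cells (ratio 7.6, 4.28 to 14.9). Slc22a15, of the organic ion transporter family, was at 14.4 CPM in effector and 2.02 CPM in naive cells (ratio 7.14, 2.96 to 22.5), and Slc16a6, the monocarboxylate transporter MCT7, at 103 CPM in effector and 29.5 CPM in naive cells (ratio 3.49, 2.74 to 4.5). Slc12a7, the potassium and chloride cotransporter KCC4, was the gene lower in effector cells, at 24 CPM (20.5 to 28.0) against 52.5 CPM (43.9 to 62.4) in naive cells (ratio 0.458, 0.362 to 0.581). Slc16a1, which led T-like cells, was at a ratio of 0.655 and did not pass.

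**Figure D4:**
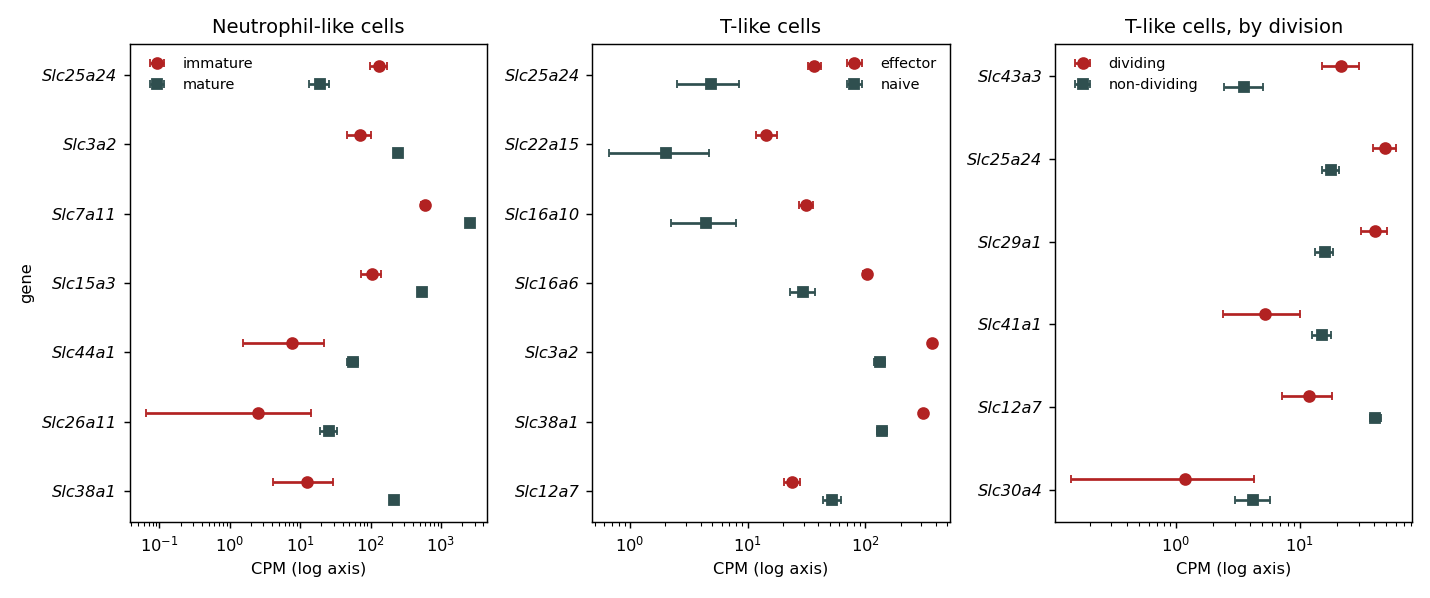
Levels of the named solute carrier genes in CPM (log axes, exact Poisson 95% intervals) in immature and mature neutrophil-like cells, effector and naive T-like cells, and dividing and non-dividing T-like cells. The first state is in red circles and the second in dark squares. Slc25a24 is higher in the first state in all 3 panels, while Slc38a1 is lower in immature neutrophil-like cells and higher in effector T-like cells.

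Dividing T-like cells, 119 cells with at least 3 of Mki67, Top2a, Birc5, Cdk1, Ube2c, Ccna2 and Cenpf, were set against 1754 T-like cells with none of these. Their median depths were 13399 and 4851 UMI, and the part of depth in the results was not tested. Of the 133 solute carriers, 5 were at least 2-fold higher in dividing cells (3.76%, against 8.16% of all genes) and 8 were lower (6.02%, against 7.36% of all genes), shares below the background. With the reduced total these counts were 3 and 14, and Slc43a3, Slc25a24 and Slc29a1 were the 3 higher genes. Here the minimum UMI count stood for 17.6 CPM in dividing and 3.34 CPM in non-dividing cells, again an unequal reach. Without that minimum, and relative to the median gene, 13 carriers were scored at least 2-fold higher and 13 at least 2-fold lower in dividing cells. Genes of few or no UMI were included in this count, with 0 UMI in a state replaced by 3 UMI. Some genes scored as higher thus had no UMI in dividing cells. Slc16a7, with 0 UMI in dividing and 1 UMI in non-dividing cells, was scored at 15.8. Of the 4 carriers of nucleosides and vitamin C, 2 were higher in dividing cells, Slc43a3 and Slc29a1, while Slc28a2 was at a ratio of 0.612 (0.428 to 0.855) and Slc23a2 of 0.754 (0.459 to 1.18). Slc43a3 was at 21.7 CPM (37 UMI) in dividing and 3.56 CPM (32 UMI) in non-dividing cells (ratio 6.1, 3.7 to 10.1), and Slc29a1 at 40.6 CPM in dividing and 15.9 CPM in non-dividing cells (ratio 2.55, 1.88 to 3.42). Slc25a24 was at 48.8 CPM in dividing and 17.8 CPM in non-dividing cells (ratio 2.74, 2.07 to 3.59). Slc25a4, the ATP and ADP exchanger ANT1, was at 209 CPM in dividing and 95.7 CPM in non-dividing cells (ratio 2.19). Slc12a7 was at 11.8 CPM in dividing and 41.1 CPM in non-dividing cells (ratio 0.286, 0.173 to 0.448), and Slc41a1 at 5.29 CPM in dividing and 15.1 CPM in non-dividing cells (ratio 0.349, 0.156 to 0.683). Slc30a4, a zinc transporter of vesicles, was at 1.18 CPM (2 UMI) in dividing and 4.23 CPM (38 UMI) in non-dividing cells, with an interval that included 1 (ratio 0.278, 0.0325 to 1.07).

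All 133 genes were placed on the GRCm38 assembly (GENCODE vM21), and the 28 leading genes lay on 15 chromosomes. Slc7a11 spans chromosome 3 from 49892526 to 50443614 on the minus strand, Slc43a3 chromosome 2 from 84936579 to 84958509 on the plus strand, and Slc16a9 chromosome 10 from 70245100 to 70285968 on the plus strand. On the same strand, 0 of the leading genes and 7 of the 133 overlap another gene. On the opposite strand Slc24a5 overlaps Myef2, Slc26a10 overlaps B4galnt1 and Slc48a1 overlaps Hdac7, while Slc7a11, Slc16a7, Slc16a9, Slc18a2 and Slc25a33 overlap predicted genes. The sources used here do not give whether counting used the strand, and the part of these pairs in the counts was not tested.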

How the data were processed

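The deposited values are UMI counts, whole numbers with no normalization. The submitters' processing notes name mm10, STAR, Seurat 2.3.4 and Cell Ranger 2.1.1, whereas the header of the matrix names software version 3.0.0. Kept were 10366 barcodes that had at least 500 UMI and 200 genes with a mitochondrial share of at most 10%, and 351 doublets called by Scrublet (3.39%) were then removed (Python 3.11.15, scanpy 1.11.5, scipy 1.17.1). The sources used here do not give how cells were called before deposit.

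A cell was a candidate for a class with UMI of at least 3 of its markers (19 lists, 148 genes). The highest share of markers took it. Cells were left out when tied (124), when without a candidate (139) or when mixed (553). Mixed cells had a candidate of another lineage at 0.6 of that share or more, or were NK-like or ILC1-like with at least 3 T markers. Classes of at least 30 cells were ranked on summed UMI, and ratios to a class with 0 UMI used a floor of 3 UMI. In the state counts relative to the median gene, 0 UMI in either state was replaced by the same floor. The lead rule was tested on simulated data. The members and lists were chosen with earlier results of these data known, and the scoring rule of the gates was set with marker levels in view. Named genes were up to 5 leading genes per class, the 2 with most UMI per substrate group and up to 3 per direction in each state. Slc24a5, Slc31a2, Slc38a6, Slc36a4, Slc43a2, Slc3a2, Slc7a8, Slc15a4, Slc25a4, Slc25a25, Slc7a6, Slc16a6, Slc6a6, Slc35a1, Slc28a2 and Slc23a2, and further state values of genes named elsewhere, were chosen after their values were seen. The closing section gives the alternatives tried, of which classes of at least 50 cells were added after the data were seen. Some members, though counted, are not reported here by name.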

Additional observations from a re-analysis of the deposited data

How the results depend on the processing

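No paired analysis was possible because the files hold 1 sample. Main counts were 28 genes leading a class, 7 of the other carriers, 1 higher and 14 lower in immature neutrophil-like, 16 higher and 1 lower in effector T-like, and 5 higher and 8 lower in dividing T-like cells. Genes leading a class numbered 13 at 4-fold and 18 with cells thinned to 1000 UMI, which by construction holds fewer UMI against the same minimum of 30, and 26 to 31 under the other settings. Of the 28, 24 led the same class with at most 5% mitochondrial UMI, 25 with the reduced total, 27 with every cell weighted equally, with Leiden clusters and with classes of at least 50 cells (added after the data were seen), and 14 with thinning. Thinning gave ratios of 1.07 for Slc24a5, 1.69 for Slc27a4, 1.36 for Slc45a4 and 1.82 for Slc16a1, and put Slc9a7 highest in cDC2-like cells. Other carriers numbered 4 with at most 5% mitochondrial UMI, 2 at 4-fold and 3 with thinning. With the reduced total, 8 were higher and 4 lower in effector cells, and 3 higher and 14 lower in dividing cells. Thinning gave 0 lower in effector, 1 higher in dividing, and 0 higher and 8 lower in immature cells, and the 5% limit gave 3 higher in dividing cells. The order of the highest and next class turned for Slc50a1 with doublet calls kept (ratio 0.994), the reduced total (0.933), equal weights (0.947) and without the 2% of barcodes with most UMI (0.971), for Slc38a2 (0.922) and Slc38a1 (0.984) with the reduced total, and for Slc30a4 with thinning (0.0). Beyond construction, the cause was not tested. Of 443 alternative ratios, 397 stayed within the main interval and 39 moved outside it without reversal. Thin classes, basophil-like, cDC2-like, cDC1-like and plasma-like cells, limit what low levels can show.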

Other observations

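Classes of fewer than 30 cells were not ranked, and their solute carrier levels are given as values. The 11 cholangiocyte-like cells held 150930 UMI. Slc6a6, the taurine transporter, was at 603 CPM in them (95% interval 485 to 740; 91 UMI), against 361 CPM in neutrophil-like cells, the highest ranked class. Slc45a3 was at 86.1 CPM (45.9 to 147; 13 UMI) in cholangiocyte-like cells, against 82.9 CPM in Kupffer-like cells. Slc35a1, the Golgi carrier of CMP-sialic acid, was at 92.8 CPM (50.7 to 156) in cholangiocyte-like cells, against 28.9 CPM in endothelial-like cells. The 10 hepatocyte-like cells held 20595 UMI, with Slc25a3 at 1170 CPM (747 to 1730; 24 UMI), against 539 CPM in classical monocyte-like cells. These cells share 1 sample, and no test was made.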
